A study of Mus musculus with 13 samples.

Results

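The 10 genes described here carry the signal of adrenocorticotropic hormone (ACTH) through cyclic AMP in the adrenal gland. They were read in mouse adrenal RNA before and after induced loss of Star, the gene of the protein that carries cholesterol into mitochondria for steroid synthesis. The genes were chosen by name. They are the ACTH receptor Mc2r and its accessory protein Mrap, the phosphodiesterases Pde4b, Pde4d, Pde8a and Pde8b, the kinase A regulatory subunits Prkar1a and Prkar2b, and the cyclic AMP response genes Crem and Sik1. All 10 were listed among the 14078 genes present in the tables of every library, and all 10 passed the filter on low counts.

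ACTH from the pituitary binds the melanocortin 2 receptor on cortical cells, which needs the accessory protein to reach the cell surface. The receptor acts through a stimulatory G protein on adenylyl cyclase, and the cyclic AMP made there frees the catalytic subunits of kinase A from their regulatory subunits, so that steroid synthesis rises. Phosphodiesterases break cyclic AMP down, and CREB-family factors such as CREM and the kinase SIK1, whose gene cyclic AMP induces, take part in the response of transcription. Mouse fat cells also carry the ACTH receptor and its accessory protein.

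The adrenal glands came from mice labelled C57BL/6. They gave 5 libraries ahead of TAM, 4 taken 24 h later and 4 taken 8 weeks later, and the labels time the later ones from the knockout of Star. TAM is the agent that induces the loss of Star in this study. Beyond the strain, the labels give no genotype, Cre driver, age or pooling of animals. The samples analysed here hold no mice that received TAM without losing Star, so the effects of time, of TAM and of losing Star cannot be told apart. The labels number the libraries but do not say that each came from its own animal, so the spread behind each p-value is that among libraries and may be technical. In whole glands, fewer cells of a type and less RNA per cell cannot be told apart either.

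Levels are FPKM as deposited (fragments scaled for transcript length and library total), which can be compared between genes. Log2 fold changes, their standard errors (SE) and adjusted p-values come from edgeR's quasi-likelihood test over all 14078 genes, and a gene was called at an adjusted p under 0.05. Listed reads ran from 17331673 to 27309429 per library. Star itself averaged 3797 ± 399 FPKM (SD, n = 5) before TAM, then 334.7 ± 274 (n = 4) and 146.1 ± 50.8 (n = 4). The library labelled 24 h replicate 3 stood apart from the rest of its group. It held 2.42 FPKM of Cyp21a1, a steroid hydroxylase of the adrenal cortex, against 1391 to 4764 FPKM in the other 24 h libraries, and no read of the glomerulosa gene Agtr1b. The cortex genes Cyp11a1, Cyp11b1, Scarb1 and Fdx1 and the glomerulosa genes Cyp11b2 and Dab2 were also lowest of the 24 h group there. Cyp11b1 stood at 1.07 FPKM against 969.4 to 1990 in the rest of the group, and Cyp11b2 at 0.0883 against 249.1 to 458.5. Cyp11a1 stood at 983.0 FPKM against 2593 to 4656, and Dab2 at 61.4 against 139.0 to 221.9. Star, whose 24 h mean includes that library, stood there at 17.4 FPKM against 208.0 to 626.1. Yet Nr5a1, the master factor of steroid-making cells, stood there at 104.4 FPKM. The cortex gene Hsd3b1 was highest of the 24 h group there, at 3024 FPKM against 1067 to 2574. So was the glomerulosa gene Wnt4, at 70.1 FPKM against 8.83 to 23.1. Gata4, Wt1 and Inha, chosen after their values were seen, stood there at 83, 49.2 and 246.0 FPKM, and reached at most 6.81, 3.31 and 54.5 FPKM in any other library. The medulla markers also summed to only 19.5 FPKM there, and to 116.3 FPKM in 24 h replicate 4, against 1182 to 7656 FPKM in the libraries from before and from 8 weeks. Each edgeR test of the 10 genes is therefore given with and without the library labelled 24 h replicate 3. For ratios, transcript shares and start sites the p-values at 24 h are given only with it.

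Markers of the cell types a whole gland can hold were read beside the 10 genes. Summed FPKM of the 7 steroid-making cortex markers ran from 18254 to 24217 before TAM, from 4355 to 18850 at 24 h and from 1519 to 3691 at 8 weeks. The 5 measured macrophage markers, of 6 listed, summed to 301.3 to 935.2, then 2059 to 3387, then 4724 to 9437 FPKM. For the 7 fat-cell markers the sums were 179.2 to 1208, then 50.4 to 2524, then 4289 to 10572 FPKM. Fabp4 alone averaged 694.6, 1060 and 5792 FPKM in these groups and made up most of the sum in every library. Lymphocyte markers summed to 5.53 to 12.5, then 18.2 to 30.3, then 26.3 to 87.3 FPKM, and the 4 capsule and fibroblast markers to 98.2 to 337.3, then 394.9 to 805.4, then 780.1 to 1469 FPKM. At 8 weeks 5 of 7 cortex markers were lower than before, while 5 of 5 macrophage, 6 of 6 lymphocyte, 3 of 7 fat-cell and 4 of 4 capsule and fibroblast markers were higher. The fat-cell markers called were Fabp4, Ucp1 and Cidea. Adipoq, Plin1, Cidec and Lep were not called, with log2 fold changes of 2.93, 1.92, 2.41 and −1.24. No medulla marker of 7 passed the test in any comparison.

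**Figure D1:**
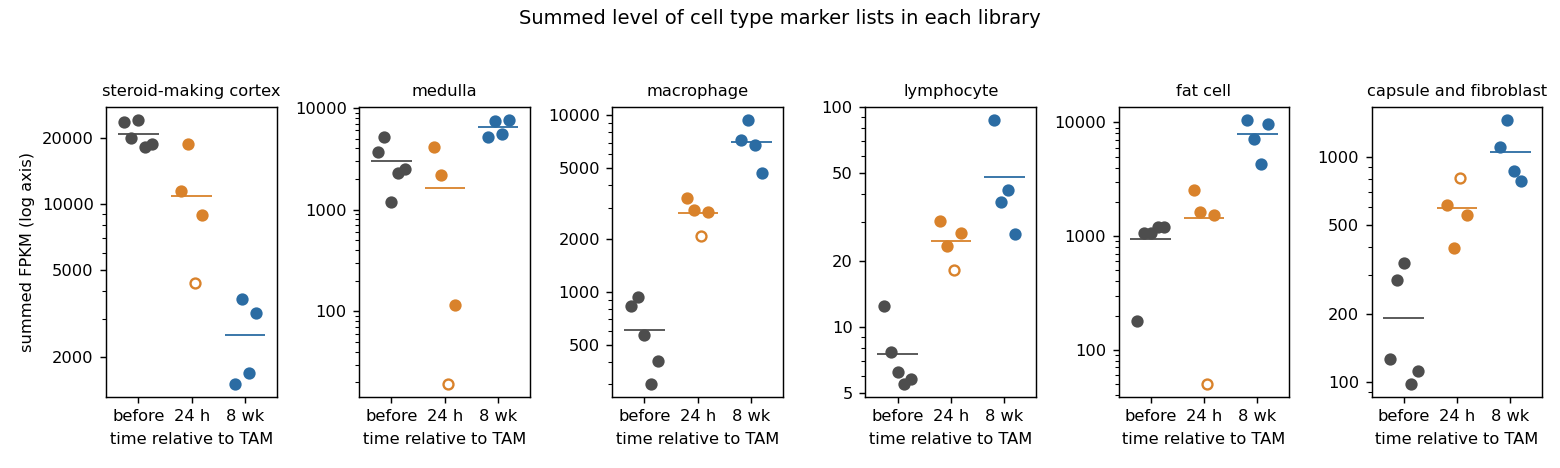
Summed FPKM of 6 lists of cell type markers in each library (log axis), with 5 libraries before TAM, 4 at 24 h and 4 at 8 weeks; lines are group means and the open point is the library labelled 24 h replicate 3. Cortex markers lie lowest at 8 weeks, between 1519 and 3691 FPKM, and macrophage markers lie highest there, between 4724 and 9437 FPKM.

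Among the 10 genes, Pde4b and Pde4d were higher at 8 weeks than before TAM, and Pde8b and Prkar1a were lower. The count of 2 higher stands beside 20.5% of all genes called higher, and the count of 2 lower beside 16.4% of all genes called lower. Without the library labelled 24 h replicate 3, Mc2r joined the lower genes, giving 2 higher and 3 lower, where 24.3% and 23.4% of all genes were called. At 24 h, Pde4b and Pde4d were higher and Pde8b was lower than before, so 2 and 1 of 10, beside 12.6% and 6.63% of all genes. The same counts of 2 and 1 held without that library, beside 16.6% and 11.8%. From 24 h to 8 weeks Pde4d was higher and Pde8b lower, 1 and 1 of 10, beside 10.1% and 10.6%. Without that library 1 was higher and 4 were lower (Mc2r, Mrap, Pde8a and Pde8b), beside 12.8% and 17.7%. The median log2 fold change of the 10 genes was −0.24 at 8 weeks against before, −0.13 at 24 h against before and −0.11 between the later groups. Over all genes these medians were 0.03, 0.03 and −0.03.

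**Figure D2:**
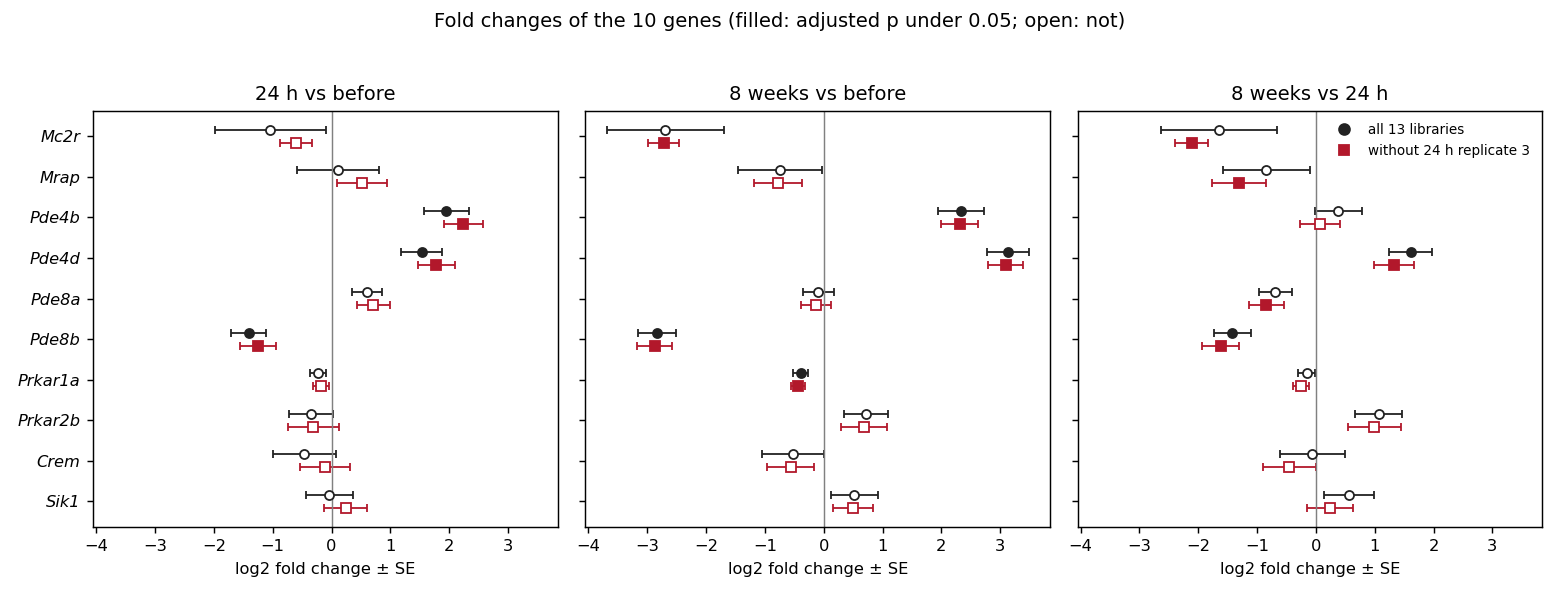
Log2 fold change with its SE for each of the 10 genes in 3 comparisons, from all 13 libraries (circles) and without the library labelled 24 h replicate 3 (squares); filled symbols have an adjusted p under 0.05. The SE of Mc2r at 8 weeks against before was 1.00 with that library and 0.26 without it, around log2 fold changes of −2.69 and −2.72.

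Mc2r, which encodes the ACTH receptor, lies on chromosome 18 from 68406899 to 68429320 of mm10 on the minus strand. Before TAM it was the most abundant of the 10 genes, at 228.6, 225.3, 300.7, 201.4 and 204.2 FPKM in replicates 1 to 5. At 24 h it stood at 108.8, 187.0, 0.132 and 136.5 FPKM, and at 8 weeks at 34.8, 48.4, 17.2 and 33.8 FPKM. All 8 later libraries had less Mc2r than any of the 5 earlier ones. The value of 0.132 FPKM is that of the library labelled 24 h replicate 3, where 7 of 27263183 listed reads fell on the gene (exact 95% Poisson interval 2.81 to 14.4, counting error only). The mean went from 232.0 ± 40.3 FPKM (SD, n = 5) to 33.5 ± 12.8 at 8 weeks (n = 4), a log2 fold change of −2.69 (SE 1.00, adjusted p = 0.051 by edgeR's quasi-likelihood test), which missed the threshold. Leaving out that library gave −2.72 (SE 0.26, adjusted p = 1.2e-05), and a fit of the before and 8-week libraries alone gave −2.72 with an adjusted p of 3.5e-05. In the authors' deposited table the log2 ratio of 8 weeks over before was −2.85 (q = 0.0011) for NM_008560, the transcript with most of the gene's FPKM.

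At 24 h the log2 fold change of Mc2r against before was −1.04 (SE 0.94, adjusted p = 0.48), and −0.61 (SE 0.27, adjusted p = 0.11) without the library labelled 24 h replicate 3, from a mean of 144.1 ± 39.6 FPKM (n = 3). Between 24 h and 8 weeks it was −1.65 (adjusted p = 0.24), and −2.11 (SE 0.28, adjusted p = 0.0005) without that library. So the difference of the receptor between the later groups passed edgeR's quasi-likelihood test in the 12 remaining libraries and not in all 13. The fall of the cortex markers is given above. Against Nr5a1 in the same library, the log2 ratio of Mc2r averaged −0.27 ± 0.28 before and 0.46 ± 0.59 at 8 weeks. That is a difference of 0.73 (two-sided exact permutation p = 0.048, adjusted over 18 ratio tests 0.095). Mc2r exceeded Nr5a1 in 1 of 5 libraries before and in 4 of 4 at 8 weeks, but the difference did not pass after adjustment. At 24 h the difference from before was −2.12, and 0.29 without the library labelled 24 h replicate 3.

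Mrap (chromosome 16 from 90738324 to 90749776, plus strand) encodes the protein that escorts the receptor to the cell surface, and its change from before TAM was not called at either time. It stood at 119.6, 111.9, 455.6, 166.4 and 126.6 FPKM before, at 211.7, 347.0, 9.61 and 252.8 at 24 h, and at 100.5, 116.9, 82.6 and 137.1 at 8 weeks. The groups overlapped, and before replicate 3 and the library labelled 24 h replicate 3 were the highest and lowest of all 13. The log2 difference between 8 weeks and before was −0.74 (SE 0.71, adjusted p = 0.44, 95% interval −2.26 to 0.79), and −0.78 (adjusted p = 0.13) without the latter library. At 24 h it was 0.11 (adjusted p = 0.93), and 0.52 (adjusted p = 0.4) without it. From 24 h to 8 weeks it was −0.84 (adjusted p = 0.43), and −1.30 (SE 0.46, adjusted p = 0.049) without it, from 270.5 ± 69.4 (n = 3) to 109.3 ± 23.3 FPKM (n = 4).

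The receptor exceeded its accessory protein in 4 of 5 libraries before TAM, the exception being replicate 3, and in 0 of 4 at each later time. The log2 ratio of Mc2r to Mrap averaged 0.46 ± 0.66 before, −2.23 ± 2.64 at 24 h and −1.77 ± 0.45 at 8 weeks. The later groups differed from before by −2.69 and −2.23 respectively, each with an exact permutation p of 0.016 (the smallest that 5 against 4 allows) and an adjusted p of 0.057, so neither passed. Without the library labelled 24 h replicate 3 the difference at 24 h was −1.38. Fat cells can carry Mrap, so it was set beside Adipoq, a hormone gene of fat cells. Adipoq averaged 81.4 ± 50 FPKM before and 565.9 ± 215.2 at 8 weeks and was not called (log2 fold change 2.93, adjusted p = 0.072). The log2 ratio of Mrap to Adipoq was 4.25 lower at 8 weeks (exact permutation p = 0.016, adjusted 0.057), which did not pass. Before replicate 1 had the highest ratio of the before group, 6.18, and without it the difference was −3.18. The part of fat cells in the level of Mrap was not tested.

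**Figure D3:**
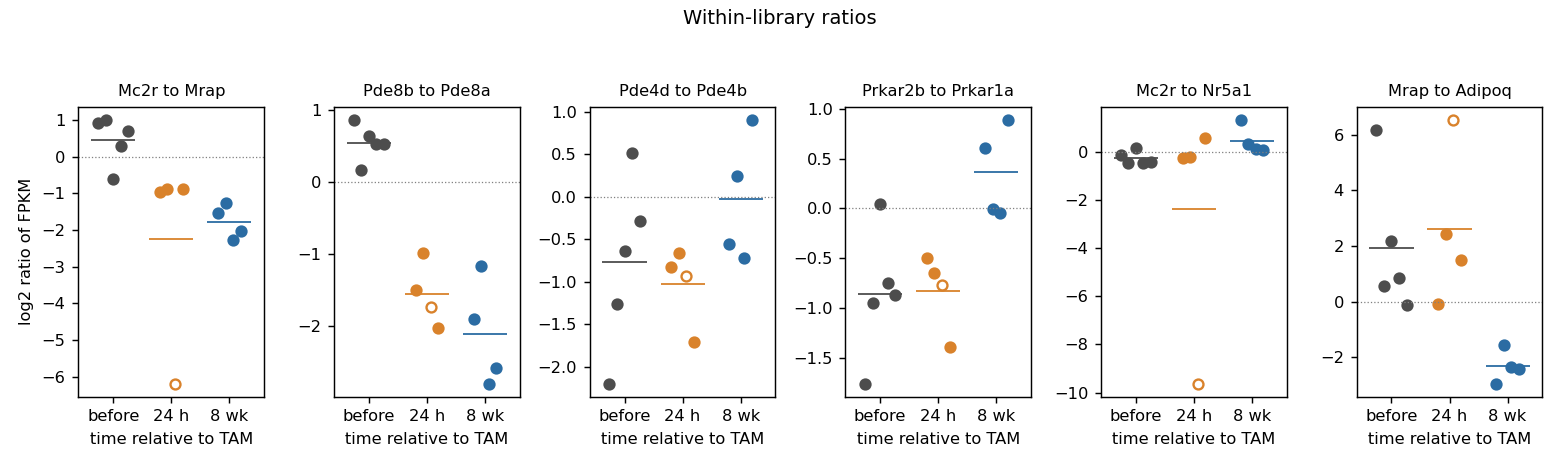
Log2 ratio of FPKM within each library for 6 gene pairs, with 5 libraries before TAM, 4 at 24 h and 4 at 8 weeks; lines are group means, the dotted line is equal level and the open point is the library labelled 24 h replicate 3. Pde8b exceeds Pde8a in 5 of 5 libraries before and in 0 of 4 at each later time.

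Of the 4 phosphodiesterases, Pde8b fell, Pde4b and Pde4d rose, and Pde8a was not called against before. Pde8b, a high-affinity cyclic AMP phosphodiesterase of the adrenal cortex, lies on chromosome 13 from 95024105 to 95250304 on the minus strand. It stood at 20.9, 16, 29.2, 21.2 and 18.2 FPKM before, at 8.5, 12.5, 5.71 and 4.57 at 24 h, and at 2.02, 3.87, 2.11 and 3.03 at 8 weeks. The 3 groups did not overlap, with the level lower at each later time. Against before TAM, Pde8b fell at 24 h by a log2 fold change of −1.41 (SE 0.30, adjusted p = 0.0059). At 8 weeks the value was −2.83 (SE 0.32, adjusted p = 3.8e-05), and between the later groups it was −1.42 (SE 0.31, adjusted p = 0.011). Leaving out the library labelled 24 h replicate 3 gave −1.25 (adjusted p = 0.011), −2.87 (adjusted p = 2e-05) and −1.62 (adjusted p = 0.0039). The 3 calls held under all 22, 21 and 21 alternatives tried for 8 weeks against before, 24 h against before and 8 weeks against 24 h. Of the 7 cortex markers, 2 were called lower than before at 24 h (Nr5a1 and Hsd3b1) and 5 at 8 weeks. The others stood at 24 h at −1.47 (Cyp11b1), −1.45 (Cyp21a1), −0.03 (Cyp11a1), 0.77 (Fdx1) and 0.98 (Scarb1) on the log2 scale. None of these was called (adjusted p from 0.35 to 0.97 by edgeR's quasi-likelihood test). These values and calls include the library labelled 24 h replicate 3, where Cyp21a1 and Cyp11b1 stood at 2.42 and 1.07 FPKM. Scarb1 stood there at 96.6 FPKM, against 1906 to 3635 in the rest of its group. Without that library Scarb1 had a log2 fold change of 1.39 (adjusted p = 0.053 by the same test). For the other cortex markers such values are not given. The part of the cortex in the fall of Pde8b was not tested.

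Pde8b was read from a pair of transcripts that begin at different places, and both were lower at 8 weeks. In the authors' deposited table the log2 ratio was −2.75 (q = 0.00064) for NM_172263 and −3.99 (q = 0.0042) for NM_001170669. The downstream start held 32.5% ± 3.08 of the gene's FPKM before, 30.5% ± 7.5 at 24 h and 20.4% ± 17.1 at 8 weeks. The difference of −12.1 points at 8 weeks had an exact permutation p of 0.13 (adjusted over 12 tests of start sites 0.38). The windows around both starts are shown because they are where those transcripts begin, from 250 bases before to 50 bases after each start, taken from RefSeq on GRCm38.p6. Capitals mark TGACG, the core of the cyclic AMP response element, searched on both strands and present in 20.8% of all 32851 windows of that length. The upstream window holds none, and the downstream window holds 1.
Pde8b NM_172263 chr13:95250255-95250554 minus strand: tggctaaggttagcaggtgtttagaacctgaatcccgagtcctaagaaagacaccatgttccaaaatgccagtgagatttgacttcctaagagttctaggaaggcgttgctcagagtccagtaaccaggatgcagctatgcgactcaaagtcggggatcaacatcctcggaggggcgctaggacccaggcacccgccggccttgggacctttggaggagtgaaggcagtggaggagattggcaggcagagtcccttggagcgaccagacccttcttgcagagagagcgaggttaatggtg
Pde8b NM_001170669 chr13:95223001-95223300 minus strand: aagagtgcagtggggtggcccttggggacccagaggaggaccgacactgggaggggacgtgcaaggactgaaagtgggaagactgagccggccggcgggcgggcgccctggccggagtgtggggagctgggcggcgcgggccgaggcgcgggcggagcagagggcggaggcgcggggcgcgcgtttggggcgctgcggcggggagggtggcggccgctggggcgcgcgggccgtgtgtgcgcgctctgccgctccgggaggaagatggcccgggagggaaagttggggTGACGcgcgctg

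Pde8a, the close relative of Pde8b (chromosome 7 from 81213804 to 81333622, plus strand), was read beside it. Its levels were 11.5, 14.3, 18.8, 14.6 and 12.6 FPKM before, 24, 24.7, 18.9 and 18.5 at 24 h, and 7.5, 8.67, 14.6 and 18.2 at 8 weeks. The 24 h libraries were the highest on average, all above the 8-week ones, though 1 library from before overlapped them. Neither change from before was called, with a log2 fold change of 0.60 (SE 0.26) and an adjusted p of 0.12 at 24 h and −0.09 at 8 weeks (SE 0.26, adjusted p = 0.81, 95% interval −0.66 to 0.47). Without the library labelled 24 h replicate 3 these were 0.71 (adjusted p = 0.076) and −0.13 (adjusted p = 0.7). Between the later groups the log2 fold change was −0.69 (adjusted p = 0.087). It became −0.84 (adjusted p = 0.048) without the library labelled 24 h replicate 3 and −0.92 (adjusted p = 0.047) without 8-week replicate 4. The log2 ratio of Pde8b to Pde8a averaged 0.54 ± 0.25 before, −1.55 ± 0.44 at 24 h and −2.11 ± 0.74 at 8 weeks, with no overlap between before and either later group. The differences from before of −2.10 and −2.65 each had an exact permutation p of 0.016, the smallest possible, and an adjusted p of 0.057. At 24 h the difference was −2.04 without the library labelled 24 h replicate 3.

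Pde4b (chromosome 4 from 102570060 to 102607262, plus strand) and Pde4d (chromosome 13 from 108654177 to 109955969, plus strand) encode phosphodiesterases of the rolipram-sensitive family, whose long forms kinase A activates. Pde4b stood at 2.21, 2.21, 1.63, 1.06 and 1.16 FPKM before, at 5.64, 4.64, 2.74 and 11.2 at 24 h, and at 8.44, 8.24, 8.31 and 5.96 at 8 weeks. Every later library exceeded every library from before, and the later groups overlapped each other. At 24 h Pde4b was up by a log2 fold change of 1.95 (SE 0.38, adjusted p = 0.0039). By 8 weeks it was up by 2.34 (SE 0.39, adjusted p = 0.00058), and the later groups differed by 0.38 (adjusted p = 0.51). These became 2.24 (adjusted p = 0.00044), 2.31 (adjusted p = 0.00011) and 0.07 (adjusted p = 0.9) without the library labelled 24 h replicate 3.

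Pde4d rose in steps, from 0.479, 0.923, 1.05, 1.51 and 0.954 FPKM before to 3.2, 2.94, 1.44 and 3.41 at 24 h and 5.76, 9.8, 5.04 and 11.2 at 8 weeks. The 8-week libraries lay above all others, and the library labelled 24 h replicate 3 was the only 24 h library within the range from before. Pde4d exceeded its level before by a log2 fold change of 1.53 at 24 h (SE 0.35, adjusted p = 0.0086). The 8-week value was 3.13 (SE 0.36, adjusted p = 4.3e-05), and the step between the later groups 1.61 (SE 0.37, adjusted p = 0.013). Leaving out that library gave 1.78 (adjusted p = 0.0014), 3.09 (adjusted p = 1.2e-05) and 1.32 (adjusted p = 0.015). The authors' deposited table gave a log2 ratio of 3.03 (q = 0.0017) for Pde4d and 2.48 (q = 0.0038) for NM_001177982, the transcript with most of the Pde4b FPKM. Of 5 macrophage markers, 5 were called higher than before at 24 h and at 8 weeks, and of 6 lymphocyte markers 2 and 6. Cd68, a macrophage gene, went from 34.2 ± 17.4 to 220.1 ± 77.1 and 432.2 ± 87.8 FPKM, and Ptprc, found on white blood cells, from 4.81 ± 1.46 to 16.8 ± 3.75 and 24.5 ± 4.76 FPKM. Of the other macrophage markers, Ctss and Lyz2 were called higher at 8 weeks than at 24 h. Csf1r and C1qa had log2 fold changes of −0.22 and −0.31 between those groups and were not called. The part of macrophages and lymphocytes in the rise of Pde4b and Pde4d was not tested.

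The windows around the starts of NM_001177982 of Pde4b and of NM_011056, the listed Pde4d transcript, are shown because these are where those transcripts begin. Pde4b NM_001177980, which begins elsewhere, ran from 0.2337 to 0.5256 FPKM before and from 0.6274 to 3.947 at 24 h. The starts of the other Pde4b transcripts are not shown. Neither window shown holds TGACG on either strand, nor AAGGTCA, the core of the site that Nr5a1 binds, which 4.72% of all windows hold.
Pde4b NM_001177982 chr4:102587308-102587607 plus strand: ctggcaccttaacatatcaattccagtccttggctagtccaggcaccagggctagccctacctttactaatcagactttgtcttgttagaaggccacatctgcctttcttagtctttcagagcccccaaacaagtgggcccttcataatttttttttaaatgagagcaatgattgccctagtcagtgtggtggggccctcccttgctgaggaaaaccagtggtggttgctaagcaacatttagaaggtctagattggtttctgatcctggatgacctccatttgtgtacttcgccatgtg
Pde4d NM_011056 chr13:108653927-108654226 plus strand: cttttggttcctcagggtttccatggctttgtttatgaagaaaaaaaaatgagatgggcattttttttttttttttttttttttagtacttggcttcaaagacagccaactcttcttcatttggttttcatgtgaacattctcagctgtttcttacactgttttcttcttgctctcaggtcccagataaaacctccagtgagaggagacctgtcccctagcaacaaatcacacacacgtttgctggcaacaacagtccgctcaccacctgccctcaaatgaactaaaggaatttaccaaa

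The makeup of the whole family was read next. Of 16 phosphodiesterase genes listed as able to break down cyclic AMP, 14 were in the tables, and at 8 weeks 7 were higher and 3 lower than before TAM, with a median log2 fold change of 1.27. Apart from the 4 described above the counts were 5 and 2 of 10, beside 20.5% and 16.4% of all genes. The summed level of the 14 genes was 167 ± 8.33 FPKM before, 122 ± 29.5 at 24 h and 129 ± 26.6 at 8 weeks. Pde2a, Pde7a and Pde8b were the lower ones. Pde8b made up 12.6% ± 3.05 of that sum before, 6.57% ± 2.6 at 24 h and 2.17% ± 0.769 at 8 weeks. The share of Pde4d was 0.582% ± 0.203, 2.2% ± 0.293 and 6.1% ± 1.83 at those times, and that of Pde4b 1% ± 0.378, 4.72% ± 1.95 and 6.27% ± 1.83. Without the library labelled 24 h replicate 3 the shares at 24 h were 6.37% ± 3.15 for Pde8b, 2.33% ± 0.154 for Pde4d and 5.14% ± 2.14 for Pde4b (n = 3). The summed level of the 14 genes at 24 h was then 136 ± 10.1 FPKM. Pde2a and Pde3b are named after their values were seen. Pde2a, an enzyme that cyclic GMP stimulates, held the largest share before, 52.4% ± 3.97, and 18.6% ± 1.89 at 8 weeks (log2 fold change of its level −1.73, adjusted p = 0.0064). Pde3b, known from the insulin response of fat cells, held the largest at 8 weeks, 27.1% ± 6.51 after 3.5% ± 1.86 before (log2 fold change of its level 2.70, adjusted p = 0.0014). At 8 weeks 3 of the 7 fat-cell markers were called higher and none lower, and their part in the level of Pde3b was not tested. Pde7a fell at 24 h (log2 fold change −2.03, adjusted p = 0.00019) and stood as low at 8 weeks (−2.02, adjusted p = 4e-05), while its relative Pde7b rose by 1.86 (adjusted p = 0.00017) and 1.87 (adjusted p = 3.5e-05) by edgeR's quasi-likelihood test.

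**Figure D4:**
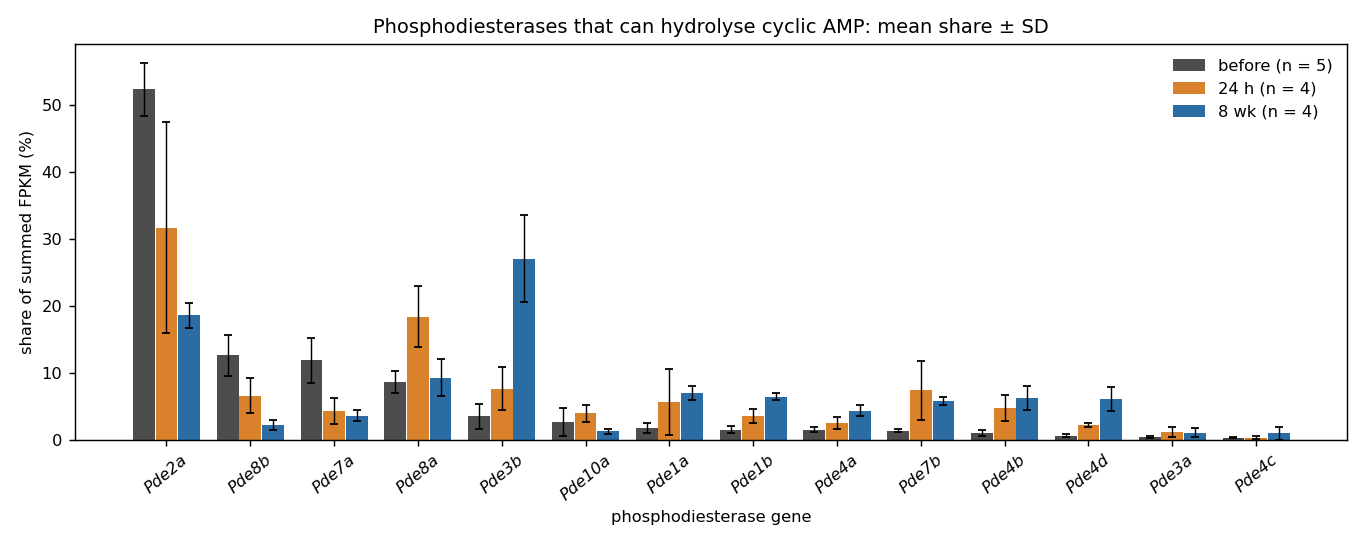
Mean share of summed FPKM (percent) with its SD for each of the 14 phosphodiesterase genes able to break down cyclic AMP, with 5 libraries before TAM, 4 at 24 h and 4 at 8 weeks, ordered by the share before. The largest share belonged to Pde2a before, at 52.4%, and to Pde3b at 8 weeks, at 27.1%.

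Of the kinase A subunits, Prkar1a, the regulatory subunit whose loss in people leads to ACTH-independent cortisol excess, was slightly lower at 8 weeks. Prkar1a (chromosome 11 from 109650949 to 109669648, plus strand) stood at 168.5, 163.4, 208.7, 171.6 and 169.0 FPKM before, at 141.4, 154.1, 148.5 and 146.8 at 24 h, and at 128.4, 135.9, 100.2 and 128.4 at 8 weeks. The 3 groups did not overlap. At 8 weeks Prkar1a had fallen by a log2 fold change of −0.39 (SE 0.13, adjusted p = 0.035), a 1.31-fold difference. At 24 h it was −0.23 (adjusted p = 0.25), and −0.16 (adjusted p = 0.43) between the later groups. In the 12 libraries other than 24 h replicate 3 the log2 fold change at 8 weeks was −0.43 (adjusted p = 0.014), at 24 h −0.18 (adjusted p = 0.34) and between them −0.25 (adjusted p = 0.19). The call at 8 weeks was lost without before replicate 3 (−0.31, adjusted p = 0.081) and without any 8-week library. Without 8-week replicates 1 to 4 in turn, the adjusted p was 0.06, 0.062, 0.091 and 0.061. The authors' deposited table gave −0.52 (q = 0.012).

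Prkar1a is the only one of these genes, among those with a window at a listed start, whose window holds the full palindrome TGACGTCA, which 1.79% of all windows hold. It lies at −49 from the start, inside it the shorter TGACG is met on both strands, and a further TGACG lies upstream. A match describes letters and not a bound site.
Prkar1a NM_021880 chr11:109650699-109650998 plus strand: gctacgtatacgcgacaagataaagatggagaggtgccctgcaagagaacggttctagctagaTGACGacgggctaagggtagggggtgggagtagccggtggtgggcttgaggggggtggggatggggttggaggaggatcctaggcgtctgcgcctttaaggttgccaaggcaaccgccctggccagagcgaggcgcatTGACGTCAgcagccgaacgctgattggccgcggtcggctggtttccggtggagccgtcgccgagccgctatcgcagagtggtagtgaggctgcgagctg

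Prkar2b (chromosome 12 from 31958479 to 32061279, minus strand), the other regulatory subunit and one that is abundant in fat and nerve cells, varied widely. It stood at 49.8, 84.9, 215.1, 102.1 and 92.5 FPKM before, at 100.1, 98.3, 87.2 and 55.9 at 24 h, and at 196.0, 134.9, 96.7 and 238.5 at 8 weeks. The groups overlapped, and before replicate 3 lay among the 8-week values. At 8 weeks the log2 difference of 0.72 was not called (SE 0.37, adjusted p = 0.15), and the value was 1.15 (adjusted p = 0.012) without before replicate 3. At 24 h it was −0.35 (adjusted p = 0.57). Between the later groups it was 1.07 (adjusted p = 0.072), which passed without before replicate 3 (1.07, adjusted p = 0.029). Without the library labelled 24 h replicate 3 the 3 values were 0.68 (adjusted p = 0.17), −0.31 (adjusted p = 0.62) and 0.99 (adjusted p = 0.11). Prkar2b exceeded Prkar1a in 1 of 5 libraries before, 0 of 4 at 24 h and 2 of 4 at 8 weeks, and its log2 ratio to Prkar1a was 1.22 higher at 8 weeks than before (exact permutation p = 0.048, adjusted 0.095). Fat-cell and medulla markers are given above, and their part in the level of Prkar2b was not tested.

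Crem (chromosome 18 from 3266354 to 3327591, minus strand) encodes activators and, from an internal promoter, the short repressor ICER that cyclic AMP induces. Its levels were 13.8, 11.3, 40.3, 17.6 and 14.5 FPKM before, 16.6, 25.2, 3.05 and 10.8 at 24 h, and 11, 20.6, 9.62 and 9.31 at 8 weeks. The groups overlapped, with the extremes in before replicate 3 and the library labelled 24 h replicate 3. Its log2 fold change was −0.46 (adjusted p = 0.6) at 24 h and −0.52 (adjusted p = 0.47, 95% interval −1.66 to 0.63) at 8 weeks against before, and −0.06 (adjusted p = 0.95) between the later groups. Without that library these were −0.11, −0.56 and −0.45, with adjusted p-values of 0.88, 0.27 and 0.46. The transcripts that begin at 3281747, inside the gene, held 90.2% ± 2.2 of its FPKM before, 93.8% ± 4.8 at 24 h and 93.1% ± 4.71 at 8 weeks. None of the 18 tests of transcript shares or 12 of start sites, over Mc2r, Pde4b, Pde8b and Crem, passed after adjustment. Those of the 24 h group include the library labelled 24 h replicate 3, where all 7 Mc2r reads were assigned to NM_001271716.

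Sik1 (chromosome 17 from 31844250 to 31855792, minus strand) encodes the salt-inducible kinase that restrains CREB coactivators and that ACTH induces in adrenal cells. It stood at 13.4, 14, 9.49, 20 and 5.55 FPKM before, at 12.8, 11.9, 5.35 and 16.9 at 24 h, and at 10.2, 12.5, 19.8 and 22.1 at 8 weeks. The groups overlapped, with 8-week replicate 4 the highest and the library labelled 24 h replicate 3 the lowest. No change was called, the log2 fold change being −0.04 at 24 h (adjusted p = 0.96) and 0.52 at 8 weeks (SE 0.40, adjusted p = 0.32) against before, and 0.56 between the later groups (adjusted p = 0.35). The values were 0.24, 0.49 and 0.24 without the library labelled 24 h replicate 3, with adjusted p-values of 0.65, 0.25 and 0.65.

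**Figure D5:**
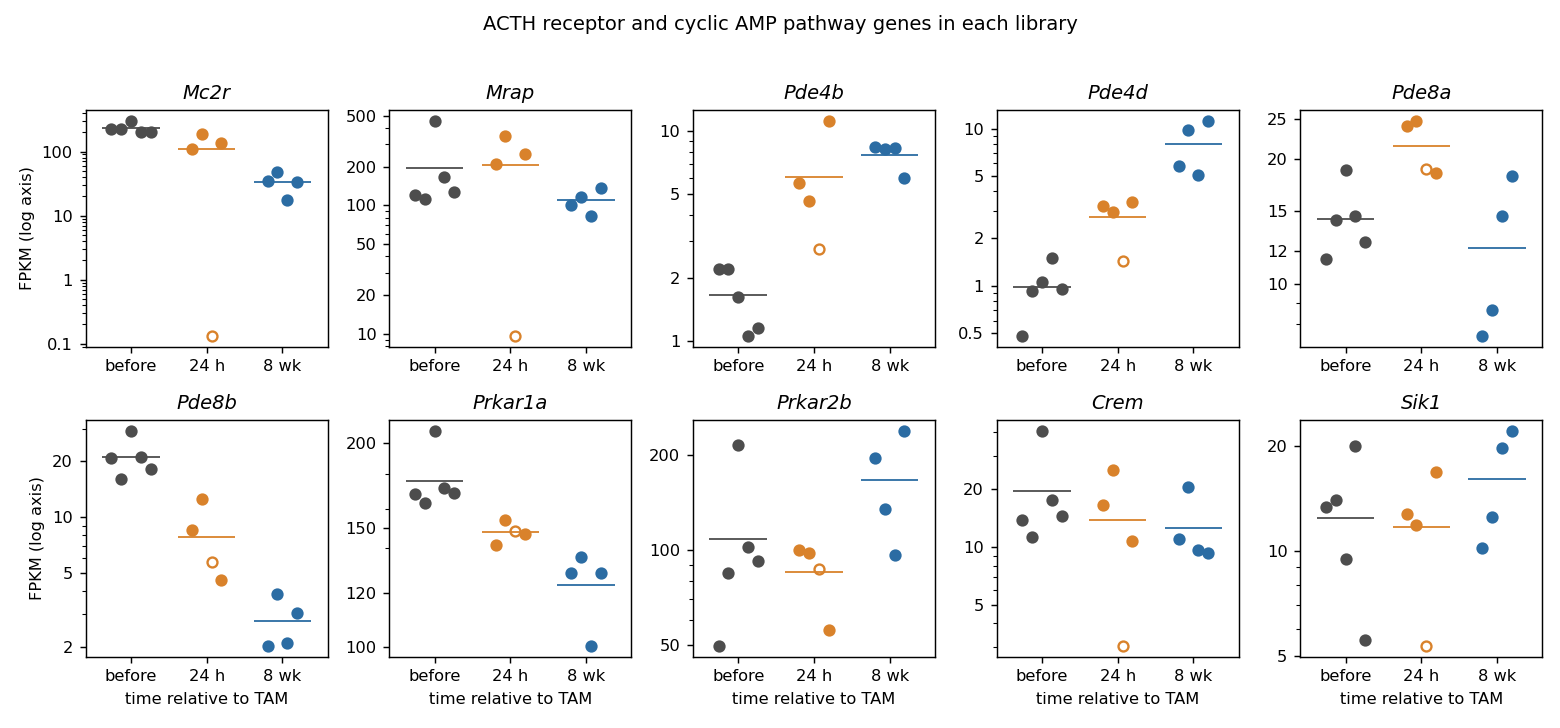
FPKM of each of the 10 genes in each library (log axes of differing range), with 5 libraries before TAM, 4 at 24 h and 4 at 8 weeks; lines are group means and the open point is the library labelled 24 h replicate 3. Mc2r runs from 201.4 to 300.7 FPKM before and from 17.2 to 48.4 at 8 weeks, and Pde4d from 0.479 to 1.51 and from 5.04 to 11.2.

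The order of the 10 genes by mean level differed between groups. Before TAM it ran Mc2r, Mrap, Prkar1a, Prkar2b, Pde8b, Crem, Pde8a, Sik1, Pde4b and Pde4d. Only the steps from Prkar2b to Pde8b and from Sik1 to Pde4b separated neighbours whose libraries did not overlap. At 24 h it ran Mrap, Prkar1a, Mc2r, Prkar2b, Pde8a, Crem, Sik1, Pde8b, Pde4b and Pde4d, with a gap between Prkar2b and Pde8a alone. At 8 weeks it ran Prkar2b, Prkar1a, Mrap, Mc2r, Sik1, Crem, Pde8a, Pde4d, Pde4b and Pde8b, with gaps from Mrap to Mc2r and from Pde4b to Pde8b. Pde8b thus went from the fifth place to the last. Within the before group, replicate 3 was the highest library for 7 of the 10 genes, against 18.7% of all genes. It also held the most Scarb1, the receptor that takes up cholesterol ester, at 2250 FPKM against 548.3 to 940.0 in the others. Scarb1 is named after its value was seen. Of the other cortex markers, Fdx1 was also highest there, and Nr5a1, Cyp11a1, Cyp21a1, Cyp11b1 and Hsd3b1 were highest in other libraries. Among 17 listed genes known to be induced by cyclic AMP, replicate 3 was highest for 4 and replicate 2 for 8, against 18.7% and 23.7% of all genes. Those 17 include Pde4b, Pde4d, Crem and Sik1. Within the 24 h group, replicate 2 was highest for 6 of the 10, against 17.4% of all genes.

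Beyond the 10 genes, lists of the same pathway held 87 other gene symbols, of which 74 were measured. Grk2 and Grk3, counted as not measured, are other symbols of Adrbk1 and Adrbk2, which were measured. At 8 weeks 20 of the 74 were higher and 15 lower than before TAM, with a median log2 fold change of 0.19. At 24 h 12 were higher and 6 lower, with a median of 0.09, and between the later groups 9 were higher and 7 lower, with a median of 0.03. The counts were 22 and 18, 14 and 9, and 9 and 13 without the library labelled 24 h replicate 3. The shares of all genes called, given above, are the background for these counts. Other melanocortin receptors and the second accessory protein were not among the genes tested.

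Among 15 G protein and adenylyl cyclase genes, 6 rose and 2 fell at 8 weeks (median log2 fold change 0.70). Adcy9 and Gnai3 were the ones that fell, Adcy9, a cyclase, from 17.3 ± 3.49 to 4.66 ± 0.844 FPKM (log2 fold change −1.77, adjusted p = 0.00014) and Gnai3, an inhibitory G protein subunit, from 79.6 ± 19.6 to 37.7 ± 4.29 FPKM (−0.95, adjusted p = 0.0013). Adcy7, a cyclase abundant in blood cells, rose from 4.9 ± 1.73 to 14.1 ± 2.05 FPKM (1.66, adjusted p = 0.00015 by edgeR's quasi-likelihood test). Of the 7 further kinase A genes, 2 rose and 1 fell. The one that fell, Prkar2a, another regulatory subunit (−0.60, adjusted p = 0.041, named after its value was seen), was not called on leaving out several single libraries, with adjusted p up to 0.12. Those that rose encode inhibitors of its catalytic subunit, Pkia from 2.17 ± 0.324 to 6.38 ± 1.32 FPKM (1.68, adjusted p = 0.00017) and Pkib from 0.239 ± 0.183 to 1.96 ± 0.485 FPKM (3.16, adjusted p = 0.0035). Of 10 anchoring proteins measured, Akap5 and Akap12 rose and Akap9 fell at 8 weeks, and Akap13 rose at 24 h. Akap9 fell from 8.61 ± 0.942 to 3.79 ± 0.215 FPKM (−1.05, adjusted p = 0.0024). The other 3 calls were lost on leaving out single libraries, with adjusted p up to 0.055 for Akap5, 0.083 for Akap12 and 0.093 for Akap13.

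No CREB-family, coactivator or salt-inducible kinase gene of 9 rose at 8 weeks, and 4 fell, beside 20.5% and 16.4% of all genes. Sik3, a relative of Sik1, fell from 14.2 ± 1.15 to 7.76 ± 1.53 FPKM (log2 fold change −0.73, adjusted p = 0.0015 by edgeR's quasi-likelihood test). Crtc3, a coactivator of CREB, fell from 11.6 ± 1.46 to 5.41 ± 0.741 FPKM (−0.97, adjusted p = 0.0024). Crtc1 fell by 0.79 on the log2 scale (adjusted p = 0.023), a call lost without 8-week replicate 1 (adjusted p = 0.052) or replicate 2 (adjusted p = 0.055). The fourth, the acetyltransferase gene Crebbp, named after its value was seen, fell by 0.79 (adjusted p = 0.03), a call lost without before replicate 3 (adjusted p = 0.056) or 8-week replicate 1 or 2 (adjusted p = 0.074 and 0.091). Rapgef4 encodes Epac2, a cyclic AMP sensor that acts apart from kinase A. It fell from 117.7 ± 13 FPKM before to 16.1 ± 3.18 at 24 h (−2.84, adjusted p = 0.00021) and 7.32 ± 3.98 at 8 weeks (−3.84, adjusted p = 1.1e-05). Of the other 3 genes on that list, Rap1b was higher at 24 h (0.73, adjusted p = 0.012), and none was called at 8 weeks. Among 6 genes of receptor desensitisation, 3 rose and 1 fell at 8 weeks. The receptor kinase genes Adrbk2 (log2 fold change 1.86, adjusted p = 0.0001) and Adrbk1 (0.68, adjusted p = 0.0073, named after its value was seen) and the arrestin gene Arrb2 (1.14, adjusted p = 0.0015) rose, and the kinase gene Grk6 fell (−0.61, adjusted p = 0.0035).

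Genes known to be induced by cyclic AMP were counted in the same way. Apart from the 4 of them described above, 2 of 13 were higher and 3 lower at 8 weeks than before TAM (median log2 fold change −0.48). All genes were called at 20.5% and 16.4% there. At 24 h 0 were higher and 2 lower (median −0.25), beside 12.6% and 6.63% of all genes. Leaving out the library labelled 24 h replicate 3 changed these counts to 3 and 5, then 0 and 2, with medians of −0.51 and 0.10. The shares of all genes were then 24.3% and 23.4%, and 16.6% and 11.8%. These counts were not tested against those shares. Nr4a3, an orphan nuclear receptor gene, stood at 9.36, 15, 10.7, 12.4 and 11.5 FPKM before, at 5.19, 4.63, 0.169 and 2.69 at 24 h, and at 0.148, 0.331, 0.605 and 0.854 at 8 weeks. It fell at 8 weeks by a log2 fold change of −4.47 (SE 0.80, adjusted p = 0.00096). At 24 h the value was −1.85 (adjusted p = 0.079), and −1.43 (adjusted p = 0.02) without the library labelled 24 h replicate 3. Its relative Nr4a1 was not called, at −0.48 (adjusted p = 0.61) and 0.46 (adjusted p = 0.68). The other genes called on this list are named after their values were seen. Fos, an immediate early gene, was higher at 8 weeks, at 85.4 ± 42.3 against 21.3 ± 20 FPKM (log2 fold change 2.12, adjusted p = 0.04), and its call was lost without before replicate 3 or 4 or 8-week replicate 2 or 4, with adjusted p up to 0.091. Ppargc1a, a coactivator gene of brown fat among other tissues, was higher by 3.64 (adjusted p = 0.002). Rgs2, which encodes a regulator of G proteins, fell from 106.7 ± 31.4 to 48 ± 18.6 FPKM (−1.04, adjusted p = 0.0073). Hsd17b7, of cholesterol synthesis, was lower at 8 weeks (−1.21, adjusted p = 0.038) and at 24 h (−1.31, adjusted p = 0.046), and the clock gene Per1 at 24 h (−0.85, adjusted p = 0.043). The calls of Hsd17b7 and Per1 were lost on leaving out any of several single libraries, with adjusted p up to 0.096 and 0.11 for Hsd17b7 and 0.11 for Per1.

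The genes whose pattern over the 13 libraries lay nearest to each called member were found by the root mean square difference of centred log2 CPM, among 14077 genes. Nearest to Pde4b were Myo1g (0.15), Arhgap30 (0.20) and Fermt3 (0.22), where Pde4b itself had a root mean square spread of 1.17. Nearest to Pde4d were Ppargc1b (0.35), Slc28a2 (0.40) and Acp5 (0.44), with a spread of 1.4 for Pde4d. Robo1 (0.20), Abhd4 (0.35) and Tbx3 (0.36) lay nearest to Pde8b, whose spread was 1.25. For Prkar1a they were Zdhhc3 (0.09), Psmd5 (0.10) and Pafah1b2 (0.10), with a spread of 0.199. Myo1g, Ppargc1b and Robo1 stayed nearest without the library labelled 24 h replicate 3, whereas Zdhhc3 moved to place 13.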

How the data were processed

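Messenger RNA of mouse adrenal glands was sequenced with a stranded TruSeq library kit (per the labels' protocols). The submitters' processing notes name bcl2fastq 2.17, TopHat2 2.0.14 and the mm10 (GRCm38) build, while the sources used here do not say how reads were counted. The 3 library tables the authors deposited hold an expected count, which is an estimate and often not whole, and an FPKM value for every listed RefSeq transcript. Of these counts, 43.3% to 46.4% per library were whole to within 1e-06. In another file the authors deposited their own test of 8 weeks against before on log2 values, from which the log2 ratio and the q-value, made from their p-value, are quoted.

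The 18738 transcripts listed for every library, for 14078 genes, were used. Counts and FPKM were summed per gene. Rounded counts entered 1 model of all 13 libraries in edgeR 4.0.16 under R 4.3.3 (quasi-likelihood test, TMM, filterByExpr, no block), and Benjamini-Hochberg adjustment ran over all genes with a threshold of 0.05. The fit was tested on simulated data. Each SE is the absolute log2 fold change over the square root of F, and 95% intervals use the t quantile of the same test. Ratios and transcript shares had two-sided exact permutation tests, adjusted over each family. With 5 against 4 libraries their smallest p is 0.016, and with 4 against 4 it is 0.029. Alternatives included limma 3.58.1 and DESeq2 1.42.0. Transcripts of a gene share reads by estimate, so their split is uncertain.

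Named besides the 10 genes were, per pathway list, the 3 of lowest p at 8 weeks and the lowest at 24 h, and the 3 nearest genes of each called member; others are said to be named after their values were seen. The members, lists and tests were chosen with earlier results of these data known. Promoter windows are RefSeq's. The table matched 6 of the 10 genes, with 19 windows, and windows of Mc2r, Mrap, Crem and Sik1 were not used here.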

Additional observations from a re-analysis of the deposited data

Results flagged for a closer look

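Of 66 sets of values within 1 group, 8 had a highest or lowest library whose gap to its nearest neighbour was large against the range of its group. Chance alone gives about 1 in 20 such sets. Before replicate 3 was the one far from the others in 4 of them, at 300.7 FPKM for Mc2r, 455.6 FPKM for Mrap, 208.7 FPKM for Prkar1a and 40.3 FPKM for Crem. At 8 weeks, replicate 4 was far from the others for Pde4b, at 5.96 FPKM, and replicate 2 for Crem, at 20.6 FPKM. The library labelled 24 h replicate 3 was far below the other 24 h libraries in the log2 ratio of Mc2r to Mrap, at −6.19, and of Mc2r to Nr5a1, at −9.63.

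Some transcripts of these genes were not listed in every table and so entered no comparison. Pde4b NM_001177981 had up to 53.6 reads after TAM, in 8-week replicate 4, against at most 13.1 reads before, and was not in the 24 h table. Crem NM_001110852 and NM_001110856 were listed for the 24 h libraries only, at up to 28.4 and 25.2 reads, both in replicate 1, above the limit of 3 reads that a count of 0 allows.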

How the results depend on the processing

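The genes called at 8 weeks against before numbered 5193, and 8101 with limma's voom and sample quality weights, 7895 over all transcripts of those tables, 3848 with a replicate block and 4152 to 6706 on leaving out 1 library. At 24 h against before they numbered 2708, with 1312 under the block, 5378 with voom and 1851 to 3998 on leaving out 1 library. For 8 weeks against 24 h they numbered 2923, with 973 in a fit of only those groups, 1661 under the block and 1782 to 4300 on leaving out 1 library (1782, 1808 and 1941 without 8-week replicate 1, 2 or 4 and 4300 without the library labelled 24 h replicate 3). Of the 10 genes, 2 were called between 8 weeks and 24 h, and 2 to 5 on leaving out 1 library, with 5 without the library labelled 24 h replicate 3. Same-numbered libraries deviated with correlations of −0.12 to 0.24, and the labels name no shared animal or batch, so the main fit used no block. These values cannot show whether libraries of the same number shared a batch. Under the block Pde4b at 24 h (adjusted p = 0.055) and Prkar1a at 8 weeks (adjusted p = 0.12) were not called.

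No called value of the 10 genes reversed. Of the uncalled log2 fold changes at 24 h, Mrap (0.11) became −0.00 under the block and −0.52 with limma on log2(FPKM + 0.1), and ranged from −0.25 to 0.72 on leaving out 1 library. With voom Prkar2b (−0.35) became 0.05, Crem (−0.46) 0.26 and Sik1 (−0.04) 0.28, with leave-one-out ranges of −0.53 to 0.08, −0.91 to 0.02 and −0.30 to 0.24. Pde8a at 8 weeks (−0.09) ranged from −0.32 to 0.09. Between 8 weeks and 24 h, with limma on log2(FPKM + 0.1), Mc2r (−1.65) became 0.16 and Crem (−0.06) 0.13, with Crem from −0.45 to 0.39 on leaving out 1 library. Without the library labelled 24 h replicate 3 the uncalled log2 ratio of Mc2r to Mrap between 8 weeks and 24 h went from 0.46 to −0.86, that of Mc2r to Nr5a1 at 24 h from −2.12 to 0.29, and that of Mrap to Adipoq from 0.67 to −0.64. The cause was not tested. At 8 weeks against before, Mc2r was called in 6 of 22 alternatives, Prkar1a in 16 and Prkar2b in 2. Without scaling, the median of all genes moved by −0.13 at 8 weeks against before. Testing without a filter on low counts gave the same counts as with it. Reading Crem, Pde4b, Pde8b and Mc2r by start site was chosen after seeing the data.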
